A study of Mus musculus with 32 samples.

Results

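Plasminogen activation is described here through 6 genes chosen by symbol: the activators Plau and Plat, the urokinase receptor Plaur, and the serpins Serpine2, Serpinf1 and Serpinb2. They are 6 of 41388 genes in each table, and all 6 were among the 16136 genes that passed a filter on low counts. The choice went by their known roles and by no threshold on their values, but earlier results of these data were known. The cells were primary chondrocytes, which make and maintain cartilage, isolated from femoral heads on postnatal day 21. They grew as unpassaged plate cultures in serum-containing medium for 4 days, and bulk RNA was sequenced. The groups were LG/J male, LG/J female, SM/J male and SM/J female mice, with 8 libraries each. LG/J and SM/J are inbred strains that differ in the repair of ear and cartilage wounds, and the study set their chondrocytes side by side with regard to cartilage regeneration and degeneration. No group carried an engineered allele or received an agent, and all groups shared the culture step. How many animals went into a library is not given in the sources used here, so a p-value reflects only how these libraries vary, and that variation may be technical.

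Plasminogen is a circulating zymogen made mainly by the liver. Urokinase (Plau) and tissue-type plasminogen activator (Plat) cut it to plasmin, a broad serine protease that degrades fibrin and matrix proteins and can activate latent collagenases in cartilage. Plaur, a receptor anchored in the cell membrane by a lipid, holds urokinase at the cell surface. Serpins inhibit serine proteases by trapping them in a covalent complex. Serpine2 (protease nexin 1) inhibits thrombin, urokinase, tissue-type activator and plasmin, and Serpinb2 (plasminogen activator inhibitor 2) inhibits urokinase and is known for its induction by inflammatory stimuli. Serpinf1 (pigment epithelium-derived factor, PEDF) has the serpin fold but inhibits no protease, and is known for restraining blood vessel growth.

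Library totals ran from 15840330 to 25571598 reads assigned to genes. LG/J male 1 and LG/J female 1 stood apart: the summed level of 10 chondrocyte markers was 2820 and 1754 CPM in them, where the remaining 14 LG/J libraries had 16818 to 51105 CPM and SM/J libraries 11159 to 42607 CPM. The summed level of 9 inflammation genes was 40368 and 44259 CPM there, with the other LG/J libraries at 140.0 to 2409 CPM and SM/J libraries at 292.1 to 7560 CPM. The strain comparisons of the 6 genes are therefore also given without these libraries, and so are the counts over the partner lists. Another 6 libraries held transcripts of both sexes: 4 female libraries (4 and 5 of LG/J, 3 and 4 of SM/J) had Y-linked Ddx3y at 19.6 to 82.5 CPM, at most 1.26 CPM in the other 12 female libraries, and SM/J males 2 and 3 had Xist at 16.3 and 17.6 CPM, at most 0.606 CPM in the other 14 male libraries. In 6 pairs of libraries within a group the squared difference of a gene was 4.14 to 4.94 times sampling noise, as a median over genes, and 5.88 in the next pair. By number these were 2 with 3 and 4 with 5 among LG/J males, 4 with 5 and 7 with 8 among LG/J females, 6 with 7 among SM/J males and 3 with 4 among SM/J females. Whether the libraries of such a pair came from separate cultures was not tested.

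Per unit of transcript length, transcripts of Serpine2, Serpinf1 and Plaur outweighed those of the activators in the median library. Over all 32 libraries, median levels in RPKM (reads per kilobase of gene model, relative to library size, here with TMM scaling, which corrects library sizes for composition) were 169.5 for Serpine2, 70.2 for Serpinf1, 67.1 for Plaur, 10.4 for Plat, 1.03 for Plau and 0.172 for Serpinb2. Each gene's range overlapped that of the next gene in this order. Within libraries the order was steadier: Serpine2 exceeded Serpinf1 in 15 of 16 LG/J and 16 of 16 SM/J libraries, and Plaur exceeded Plat in 16 of 16 LG/J and 15 of 16 SM/J libraries. Serpinf1 exceeded Plaur in 11 of 16 LG/J and 13 of 16 SM/J libraries, so this pair had no fixed order. Plat exceeded Plau in every library. The Plat share of the summed activator RPKM was 77.7 to 97.9% in LG/J (median 95.1%) and 78.5 to 95.4% in SM/J (median 90.1%), with overlapping ranges.

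Plau, on the plus strand of chromosome 14 (ENSMUSG00000021822, 20836662 to 20843388, GRCm38), was the member with the largest strain difference. Its level as TMM-scaled CPM (a gene's counts relative to its library's total) had a lowest, median and highest value of 0.245, 1.29 and 4.81 in LG/J males, against 2.36, 3.42 and 5.65 in SM/J males. In females these values were 0.982, 1.33 and 2.44 CPM in LG/J, against 2.38, 4.93 and 17.6 CPM in SM/J. The strains overlapped, but 13 of 16 LG/J libraries lay below every SM/J library, and all 16 SM/J libraries lay above the LG/J median. The mean was 1.60 ± 1.09 CPM over LG/J libraries, against 4.97 ± 3.82 CPM over SM/J libraries (SD, n = 16 each). Plau was 2.97-fold lower in LG/J over both sexes, a log2 fold change (LG/J over SM/J, from the fit) of -1.57 ± 0.30 (SE), with an adjusted p of 0.000157 in edgeR's quasi-likelihood test. With LG/J male 1 and female 1 left out, the log2 fold change was -1.59 ± 0.33 (edgeR, adjusted p = 0.000359). Plau therefore fell in LG/J whether or not the libraries numbered 1 were kept.

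The Plau difference was called in females, with a log2 fold change of -2.06 ± 0.44 (edgeR, adjusted p = 0.000933), and missed the threshold in males at -1.08 ± 0.43 (edgeR, adjusted p = 0.0670). The difference between these contrasts was itself not called, at 0.97 ± 0.60 on the log2 scale (edgeR, adjusted p = 0.745). With LG/J male 1 and female 1 left out, these strain differences were -2.11 ± 0.47 in females (edgeR, adjusted p = 0.00174) and -1.07 ± 0.46 in males (edgeR, adjusted p = 0.0893). In each strain the library with the highest Plau level was also the library with the highest summed level of 13 macrophage markers: LG/J male 6 had 4.81 CPM of Plau and a marker sum of 788.5 CPM, and SM/J female 2 had 17.6 CPM of Plau and a marker sum of 858.0 CPM. Over all libraries the marker sum ran from 15.4 to 788.5 CPM in LG/J (median 58.0 CPM) and from 48.9 to 858.0 CPM in SM/J (median 135.6 CPM). LG/J female 1 and male 1 had the next highest LG/J sums, at 524.6 and 406.7 CPM, with Plau at only 1.91 and 1.58 CPM. Their sums came mostly from Cd14 (369.7 and 249.3 CPM) and Cd68 (148.1 and 151.0 CPM), while Csf1r was at 0.861 and 0.882 CPM. Of the 10 macrophage markers tested for strain, 2 fell in LG/J (Fcgr3 and Tyrobp) and none rose, and no marker was at 0 in every library. Whether these cells account for part of the strain difference in Plau was not tested, and in bulk RNA fewer cells of a type and less RNA per cell cannot be told apart. Without LG/J male 6 and SM/J female 2, left out after their values were seen, the Plau difference was -1.59 ± 0.25 over both sexes (edgeR, adjusted p = 1.1e-05). In males it was then -1.54 ± 0.36 (edgeR, adjusted p = 0.00243), so that males were called too. These libraries held the highest Plau level of their strain, so leaving them out narrows the spread of Plau by choice. The smaller p-values and the call in males are therefore no test of the part of macrophages.

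**Figure D1:**
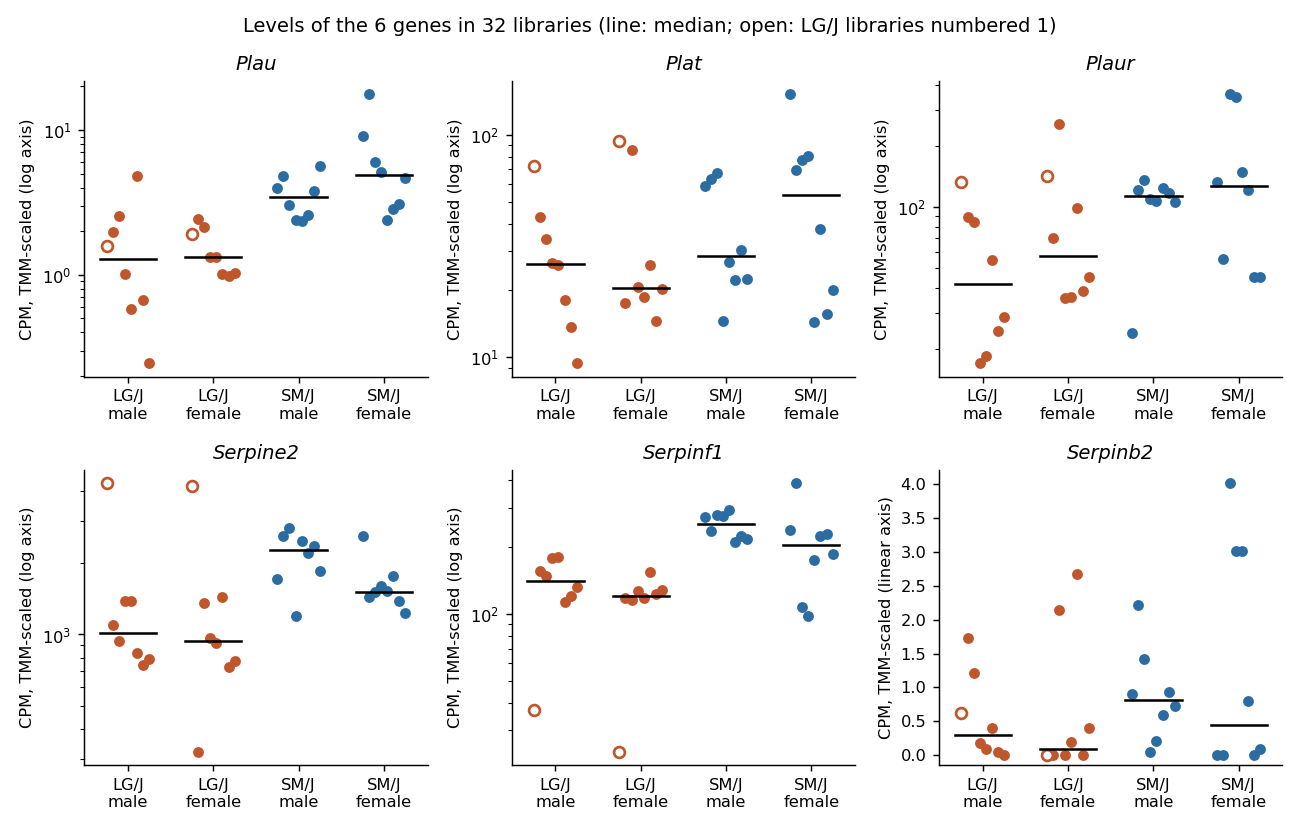
Level of each of the 6 genes in each of the 32 libraries by strain and sex, in TMM-scaled CPM on a log axis (linear for Serpinb2), with a line at each group's median and open circles for LG/J male 1 and LG/J female 1. Plau, Serpine2 and Serpinf1 are lower in most LG/J libraries, and the open circles are the highest of all 32 libraries for Serpine2 and the lowest of all 32 for Serpinf1.

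Plat, the more abundant activator (ENSMUSG00000031538, chromosome 8, 22757744 to 22782847, plus strand), varied more within groups than between strains. In males it had a lowest, median and highest level of 9.40, 26.3 and 72.8 CPM in LG/J, against 14.5, 28.7 and 67.6 CPM in SM/J. In females these levels were 14.6, 20.6 and 94.4 CPM in LG/J, against 14.5, 53.7 and 152.2 CPM in SM/J. The strains overlapped almost fully, and 92.0% of the variation in log2 CPM lay within groups, or 84.0% without the libraries numbered 1. This was not particular to Plat. Over all libraries the share within groups was 93.2% for Serpinb2, 77.2% for Plaur, 74.9% for Serpine2, 59.5% for Serpinf1 and 47.6% for Plau. The log2 fold change of Plat was -0.49 ± 0.36 (edgeR, adjusted p = 0.324). LG/J male 1 (72.8 CPM) and LG/J female 1 (94.4 CPM) were among the 3 highest LG/J libraries, with LG/J female 3 (85.7 CPM) between them. Without the libraries numbered 1 the log2 fold change was -0.83 ± 0.34 (edgeR, adjusted p = 0.0662), still short of the threshold.

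Plaur (ENSMUSG00000046223, chromosome 7, 24462500 to 24475873, plus strand) lay lower in most LG/J libraries, with a wide spread in both strains. In males the lowest, median and highest levels were 17.0, 41.8 and 132.6 CPM in LG/J, against 23.9, 113.6 and 135.0 CPM in SM/J. In females they were 35.5, 57.5 and 256.7 CPM in LG/J, against 45.3, 126.8 and 357.9 CPM in SM/J. The strains overlapped at both ends: 2 LG/J libraries lay below every SM/J library and 2 SM/J libraries above every LG/J library, while 13 of 16 LG/J libraries were below the SM/J median. SM/J male 1, at 23.9 CPM, was far below the 105.5 to 135.0 CPM of the other SM/J males. The log2 fold change was -0.85 ± 0.36 over all libraries (edgeR, adjusted p = 0.0740) and -1.06 ± 0.37 without LG/J male 1 and female 1 (edgeR, adjusted p = 0.0267). Between these fits the call turned on few libraries: it was also made without LG/J male 1 alone (edgeR, adjusted p = 0.0329), without LG/J female 3 alone (edgeR, adjusted p = 0.0178) and without SM/J male 1 alone (edgeR, adjusted p = 0.0442). With all 32 libraries kept, limma voom with quality weights called it at -1.18 ± 0.31 (adjusted p = 0.00332). When the 6 libraries with transcripts of both sexes were left out beside LG/J male 1 and female 1, the log2 fold change was -0.47 ± 0.37 (edgeR, adjusted p = 0.403). These include SM/J females 3 and 4, which are 1 of the 6 close pairs. They held the highest Plaur levels, at 357.9 and 348.0 CPM, and had the lowest chondrocyte marker sums of SM/J, at 11159 and 11667 CPM. Plaur was called in 3 of 14 alternative fits, and in neither fit with close pairs summed. LG/J female 3, the highest LG/J library at 256.7 CPM, had the lowest chondrocyte marker sum of LG/J apart from the libraries numbered 1, at 16818 CPM. Whether the state of these cultures has a part in the Plaur levels was not tested.

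Serpine2, the most abundant member (ENSMUSG00000026249, chromosome 1, 79794197 to 79861180, minus strand), had a strain difference whose call turned on the libraries numbered 1 and on the method. In males its lowest, median and highest levels were 744.9, 1016 and 4303 CPM in LG/J, against 1200.2, 2267 and 2788 CPM in SM/J. In females they were 322.0, 941.9 and 4183 CPM in LG/J, against 1235, 1509.8 and 2589 CPM in SM/J. LG/J male 1 and female 1 held the highest levels of all 32 libraries, whereas the other 14 LG/J libraries reached at most 1429 CPM, and 10 of these 14 lay below every SM/J library. Over all libraries the log2 fold change was -0.43 ± 0.26 (edgeR, adjusted p = 0.228). Without LG/J male 1 and female 1 it was -0.94 ± 0.16 (edgeR, adjusted p = 3.03e-05), or 1.91-fold lower in LG/J. Leaving out LG/J male 1 alone (edgeR, adjusted p = 0.0218) or LG/J female 1 alone (edgeR, adjusted p = 0.0156) was enough for the call. With all 32 libraries kept, limma voom with quality weights called it too, at -0.87 ± 0.17 (adjusted p = 0.000159). In edgeR, with both libraries numbered 1 left out, the difference was -1.07 ± 0.23 in males (edgeR, adjusted p = 0.00074) and -0.81 ± 0.23 in females (edgeR, adjusted p = 0.0124).

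Serpinf1 (ENSMUSG00000000753, chromosome 11, 75409769 to 75422701, minus strand) fell in LG/J in both sexes. In males its lowest, median and highest levels were 37.2, 140.4 and 180.9 CPM in LG/J, against 211.0, 253.6 and 294.5 CPM in SM/J. These groups did not overlap, but how many of all genes separate the male groups in this way was not counted. In females they were 24.0, 121.1 and 154.0 CPM in LG/J, against 98.0, 205.5 and 387.8 CPM in SM/J. The overlap in females came from SM/J females 3 and 4, at 107.6 and 98.0 CPM, and SM/J female 5, at 174.6 CPM, was the only other SM/J library below the highest LG/J library of either sex. The log2 fold change was -0.88 ± 0.20 over both sexes (edgeR, adjusted p = 0.000949), or 1.85-fold lower in LG/J. It was -0.91 ± 0.28 in males (edgeR, adjusted p = 0.0184) and -0.85 ± 0.28 in females (edgeR, adjusted p = 0.0395). LG/J male 1 and female 1 had the lowest levels of all 32 libraries, at 37.2 and 24.0 CPM, opposite to their place in Serpine2. Without them the difference was -0.74 ± 0.13 over both sexes (edgeR, adjusted p = 7.06e-05), -0.77 ± 0.19 in males (edgeR, adjusted p = 0.00287) and -0.70 ± 0.19 in females (edgeR, adjusted p = 0.00969). The other 14 LG/J libraries lay within 112.9 to 180.9 CPM, the smallest spread on the log2 scale of any member in that strain. The call in females lay close to the threshold and was lost without any 1 of 7 libraries (LG/J females 2, 5 and 7, SM/J females 1, 2, 6 and 7), with adjusted p from edgeR of 0.0512 to 0.126. The highest of these was without SM/J female 2, which held the highest Serpinf1 level of all libraries.

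Serpinb2 (ENSMUSG00000062345, chromosome 1, 107511423 to 107535478, plus strand) had few counts in many libraries, with none in some and 88 in the highest. It ran from 0 to 1.73 CPM in LG/J males (median 0.292), from 0 to 2.67 CPM in LG/J females (median 0.0952), from 0.0508 to 2.21 CPM in SM/J males (median 0.811) and from 0 to 4.01 CPM in SM/J females (median 0.446). No read was counted in 5 LG/J and 3 SM/J libraries, where a count of 0 allows up to 3 counts, or 0.131 to 0.185 CPM in these libraries. These limits cover counting error only. The strains overlapped over nearly the whole range, and the log2 fold change was -0.86 ± 0.72 (edgeR, adjusted p = 0.409), and -0.77 ± 0.74 without LG/J male 1 and female 1 (edgeR, adjusted p = 0.465). Over all libraries its 95% interval, from -2.27 to 0.56, spans a large decrease and a modest increase. The overlapping gene Serpinb10, on the same strand, held 59 counts over all libraries. Whether reads lying in both genes were assigned to either was not tested, so this count sets no bound on them.

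Over the set, 2 of the 6 genes were called for strain, both lower in LG/J, where 29.9% of all genes tested were called and 13.5% were called lower. The median log2 fold change of the 6 genes was -0.85, against 0.02 for all genes. These genes were chosen with earlier results of these data known, so the counts over the set describe and do not test. Without LG/J male 1 and female 1, 4 of 6 were called, all lower in LG/J, where 32.2% of all genes were called and 15.1% were called lower. All 6 point estimates were negative in both fits, although for Plat and Serpinb2 neither fit passed the threshold. In females 2 of 6 were called (13.4% of all genes) and in males 1 of 6 (22.3% of all genes). Without LG/J male 1 and female 1 these counts were 3 of 6 in females (15.9% of all genes) and 2 of 6 in males (24.7% of all genes). For none of the 6 genes did the strains separate completely over both sexes, as they did for 2.62% of all genes. Markers of cell state and of other cell types differed between the strains as well, by the same edgeR test over all 32 libraries. Of 10 chondrocyte markers tested, 3 rose in LG/J (Acan, Sox9 and Hapln1) and none fell. Of 8 inflammation genes tested, 5 were called higher in LG/J and none lower, but the medians did not follow. The median inflammation marker sum was 468.1 CPM in LG/J, against 653.6 CPM in SM/J. Of the genes called, Ptgs2 had the higher median in LG/J (70.6 against 29.6 CPM). Cxcl1 (11.7 against 27.1 CPM), Cxcl5 (2.50 against 7.94 CPM), Nos2 (1.59 against 2.02 CPM) and Il6 (0.351 against 0.358 CPM) had the lower. LG/J male 1 and female 1 held the lowest chondrocyte and the highest inflammation marker sums of all libraries, and marker fits without them are not given. Of 8 fibroblast and dedifferentiation markers, 1 rose (Thy1) and 3 fell (Postn, Twist1 and Acta2), with Acta2 at -2.70 on the log2 scale. Of 5 osteoclast markers, 2 fell (Dcstamp and Oscar), and none of 6 osteoblast markers was called. Both that fell were near the limit of detection, with medians in LG/J and SM/J of 0.0677 and 0.675 CPM for Dcstamp and 0.203 and 1.06 CPM for Oscar. The more abundant Ctsk and Acp5 were not called. The part of these markers in the strain differences of the 6 genes was not tested.

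**Figure D2:**
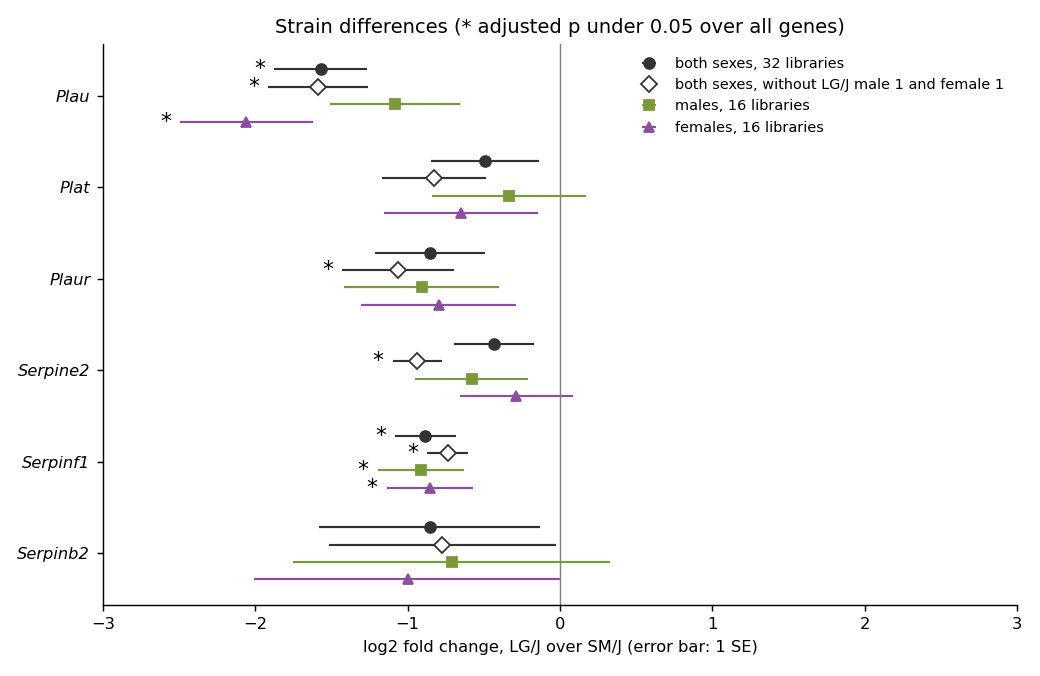
Log2 fold change of each gene, LG/J over SM/J, with bars of 1 SE, over both sexes with all 32 libraries (filled circle) and without LG/J male 1 and LG/J female 1 (open diamond), and in males and females; a star marks an adjusted p under 0.05. All estimates lie left of 0, and the diamond of Serpine2, at -0.94, stands apart from its circle, at -0.43.

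No member was called for sex, where edgeR called 3.46% of all genes; none had an unadjusted p under 0.05, and neither DESeq2 nor limma voom called any. The largest sex difference was that of Plaur, at -0.63 ± 0.36 (log2, male over female; edgeR, adjusted p = 0.350). The adjusted p of the others ran from 0.507 for Serpinf1 to 0.763 for Serpinb2. The strain difference of no member was called as differing between the sexes by any of these tools, and edgeR called 0.0062% of all genes, which is 1 gene. Scaled by library size alone, 24 genes were called higher and 579 lower in males, in place of 215 and 343, and no member's sex difference changed sign. The intervals of the strain by sex difference are wide: for Plau that difference ran from -0.20 to 2.15 on the log2 scale, and for Serpine2 from -1.32 to 0.73. The data thus do not show the strain effects to be alike in males and females.

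The promoters of the members called lower in LG/J in either fit are shown for sequence context, as far as the RefSeq promoter table held them; Plaur, Serpine2 and Serpinf1 were found there. Each is the 250 bases before the RefSeq transcription start, 5′ to 3′ on the gene's strand, from GRCm38.p6. Capitals mark matches on either strand to the AP-1 site TGANTCA or the GC box GGGCGG, overlapping matches included.
Plaur, chr7:24462233-24462482, plus strand: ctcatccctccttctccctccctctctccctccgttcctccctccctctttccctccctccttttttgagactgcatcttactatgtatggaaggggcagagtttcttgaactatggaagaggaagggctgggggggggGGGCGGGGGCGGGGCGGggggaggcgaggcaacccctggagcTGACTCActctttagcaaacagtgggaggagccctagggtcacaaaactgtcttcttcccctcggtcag
Serpine2, chr1:79858666-79858915, minus strand: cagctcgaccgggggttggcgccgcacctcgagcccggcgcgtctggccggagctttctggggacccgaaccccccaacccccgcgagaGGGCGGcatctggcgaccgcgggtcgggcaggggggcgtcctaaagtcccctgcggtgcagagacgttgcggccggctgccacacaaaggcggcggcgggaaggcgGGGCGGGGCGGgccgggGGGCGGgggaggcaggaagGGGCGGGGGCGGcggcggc
Serpinf1, chr11:75422624-75422873, minus strand: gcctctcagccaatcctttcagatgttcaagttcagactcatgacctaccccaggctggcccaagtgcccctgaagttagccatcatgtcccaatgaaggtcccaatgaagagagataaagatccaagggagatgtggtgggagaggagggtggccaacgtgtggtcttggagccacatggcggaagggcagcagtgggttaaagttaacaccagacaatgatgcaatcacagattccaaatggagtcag

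The 3 windows differ in composition. That of Serpine2 was 78.8% G and C with 34 CG pairs and 6 GC boxes, where the median over 32851 promoters was 52.4% and 6 CG pairs. That of Plaur was 59.6% G and C, with 3 GC boxes and 1 AP-1 site starting 69 bases before the start. The Serpinf1 window was 51.6% G and C and held neither motif nor TATAAA. A GC box occurred in 32.7% of all promoters in the table, the AP-1 site in 6.75% and TATAAA in 12.4%. These matches are descriptions of the reference sequence, and no strain sequence was used. The deposited gene models of Serpine2 and Serpinf1 start upstream of these RefSeq starts, so a window before that start would differ.

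Of 59 partner genes listed for the same system, 48 were tested, and 6 rose and 12 fell in LG/J (37.5% called, against 29.9% of all genes), with a median log2 fold change of -0.10. The counts were again 6 and 12 without LG/J male 1 and female 1, but not of the same genes: Serpind1, Plgrkt and Jun were no longer called, while Serping1, at -1.25 (edgeR, adjusted p = 0.00654), Plxdc2, at -0.77 (edgeR, adjusted p = 0.0302), and Jund, at 0.31 (edgeR, adjusted p = 0.0283), were. The lists were written with earlier results of these data known, so their counts describe and do not test. Plg, the substrate itself, did not pass the filter: it had 0 to 0.615 CPM for LG/J and 0 to 0.524 CPM for SM/J. Among the other serine proteases, 1 of 3 tested was called, coagulation factor F10, at 0 to 0.756 CPM in LG/J (median 0.190) and 0.142 to 2.71 CPM in SM/J (median 0.999), which is near the limit of detection in LG/J.

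The inhibitors that are not among the 6 genes gave 1 higher and 3 lower of 12 tested. Spint2, a Kunitz-type inhibitor of membrane-bound serine proteases, rose, with 1.77 to 14.1 CPM in LG/J (median 7.39) and 0.491 to 3.91 CPM in SM/J (median 1.32), a log2 fold change of 2.25 ± 0.28 (edgeR, adjusted p = 8.67e-08). Pzp, a broad protease inhibitor of the alpha-2-macroglobulin family, fell by 0.95 ± 0.19 on the log2 scale (edgeR, adjusted p = 0.000309) with a median of 0.389 CPM in LG/J, against 0.794 CPM in SM/J. Serpinb6a, an intracellular serpin, fell by 0.32 ± 0.11 on the log2 scale (edgeR, adjusted p = 0.0232), a call lost without the 6 libraries that held both sexes' transcripts (edgeR, adjusted p = 0.193). Serpind1 (heparin cofactor 2, a thrombin inhibitor) had 0.143 to 1.72 CPM in LG/J (median 0.327), against 0.0892 to 3.31 CPM in SM/J (median 0.657), a log2 fold change of -1.11 ± 0.41 (edgeR, adjusted p = 0.0396). Its call was lost without LG/J male 1 and female 1 (edgeR, adjusted p = 0.0682) and in 15 of the 32 fits that left out a single library.

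Among 15 tested genes for binding, clearance and cofactors, 2 rose and 6 fell in LG/J. Mrc2, an endocytic collagen receptor that associates with the urokinase receptor, averaged 19.2 ± 7.75 CPM over LG/J libraries, against 30.4 ± 4.43 CPM over SM/J libraries (SD, n = 16 each), a log2 fold change of -0.67 ± 0.14 (edgeR, adjusted p = 0.000326). Itgav, the alpha-v integrin chain of vitronectin receptors, averaged 51.5 ± 19.5 CPM over LG/J libraries, against 31.7 ± 6.97 CPM over SM/J libraries, a log2 fold change of 0.69 ± 0.14 (edgeR, adjusted p = 0.000236). Its ligand vitronectin (Vtn) was at 0 to 0.378 CPM in LG/J (median 0.0204) and 0.166 to 1.17 CPM in SM/J (median 0.461). The LG/J levels of Vtn thus lay mostly under what 3 counts would give. Igf2r, a clearance receptor that binds plasminogen and the urokinase receptor, rose by 0.39 ± 0.10 on the log2 scale (edgeR, adjusted p = 0.00379). Plgrkt, a membrane receptor for plasminogen, fell by 0.17 ± 0.06 on the log2 scale (edgeR, adjusted p = 0.0317), a call lost without LG/J male 1 and female 1 (edgeR, adjusted p = 0.0654).

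Of 5 tested receptors and cofactors of thrombin and factor VII, F3 (tissue factor), which starts coagulation, was called, with 5.22 to 137 CPM in LG/J (median 12.7) and 14.2 to 375 CPM in SM/J (median 43.0), a log2 fold change of -1.99 ± 0.47 (edgeR, adjusted p = 0.00165). Without the 6 libraries that held both sexes' transcripts it was at -0.90 (edgeR, adjusted p = 0.0978). Of 4 reported PEDF receptors, Lrp6 rose by 0.35 ± 0.11 on the log2 scale (edgeR, adjusted p = 0.0112). Of 9 AP-1 and ETS transcription factors, families known to drive Plau and Plaur promoters, Ets1 rose by 0.55 ± 0.08 (edgeR, adjusted p = 3.67e-06), Fosl2 fell by 0.61 ± 0.18 (edgeR, adjusted p = 0.0108) and Jun rose by 0.46 ± 0.16 (edgeR, adjusted p = 0.0277) on the log2 scale. The Jun call was lost without LG/J male 1 and female 1 (edgeR, adjusted p = 0.116), and the Fosl2 call without the 6 libraries that held both sexes' transcripts (edgeR, adjusted p = 0.141).

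**Figure D3:**
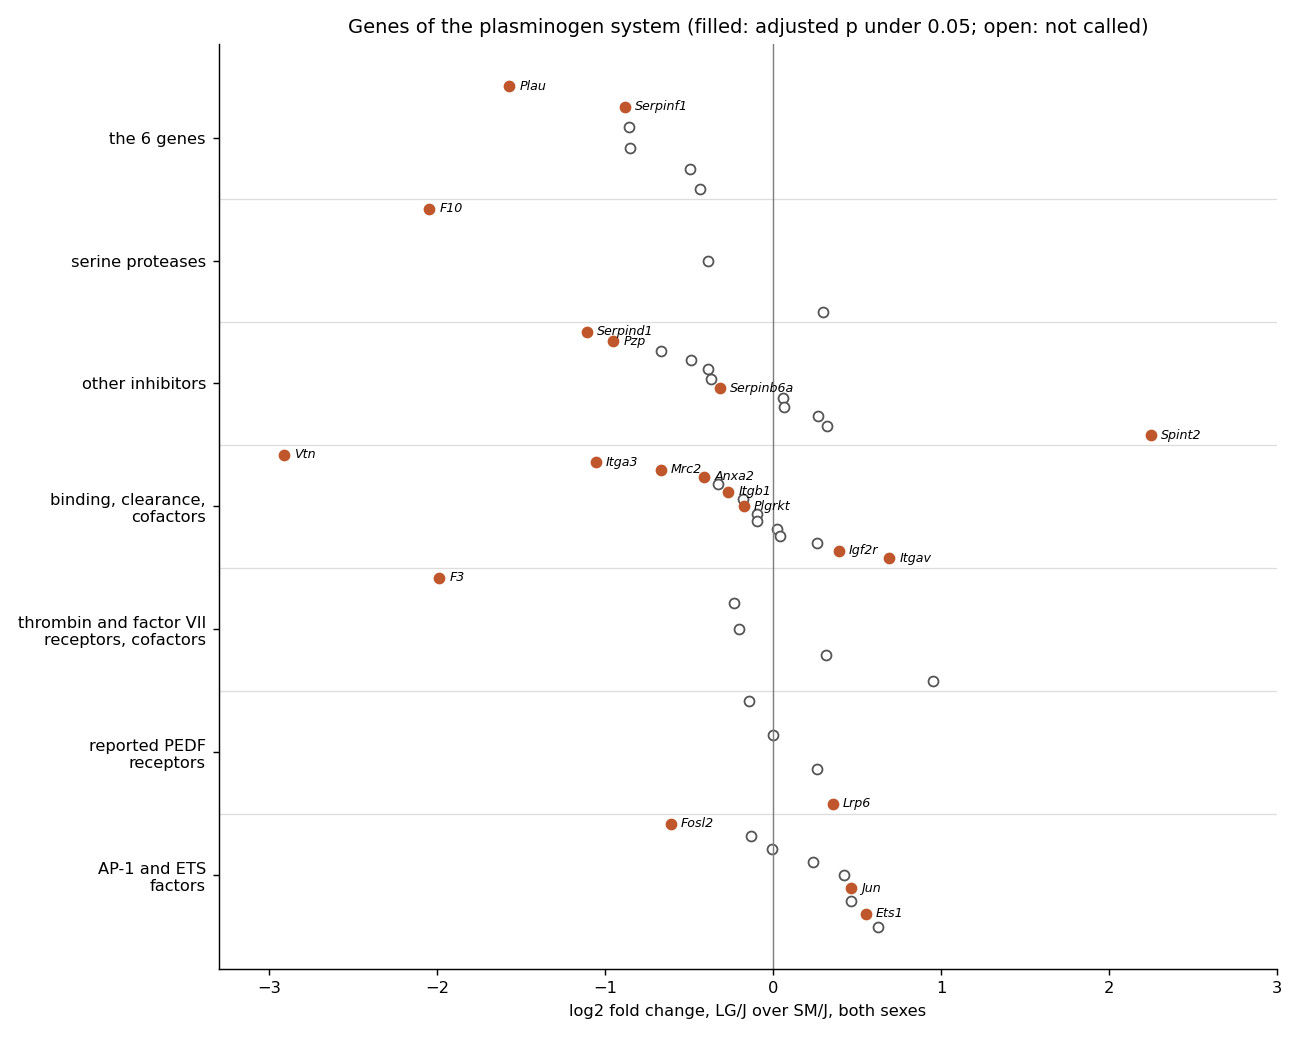
Log2 fold change, LG/J over SM/J over both sexes, of the 6 genes and of 48 partner genes by list; filled points have an adjusted p under 0.05 and are named. The 6 genes lie left of 0, while the partner lists spread to both sides, from Vtn at -2.91 to Spint2 at 2.25.

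Some members shared their highest libraries and others did not, as read from the levels alone. Plaur was highest in SM/J females 3 and 4, a close pair, where Serpinb2 was high as well and Serpinf1 lowest for that strain. Plau was highest in SM/J female 2, where Plaur was at 55.6 CPM, below the SM/J median of 119.4 CPM. Endothelial marker sums were low throughout, reaching 10.7 CPM at most.

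**Figure D4:**
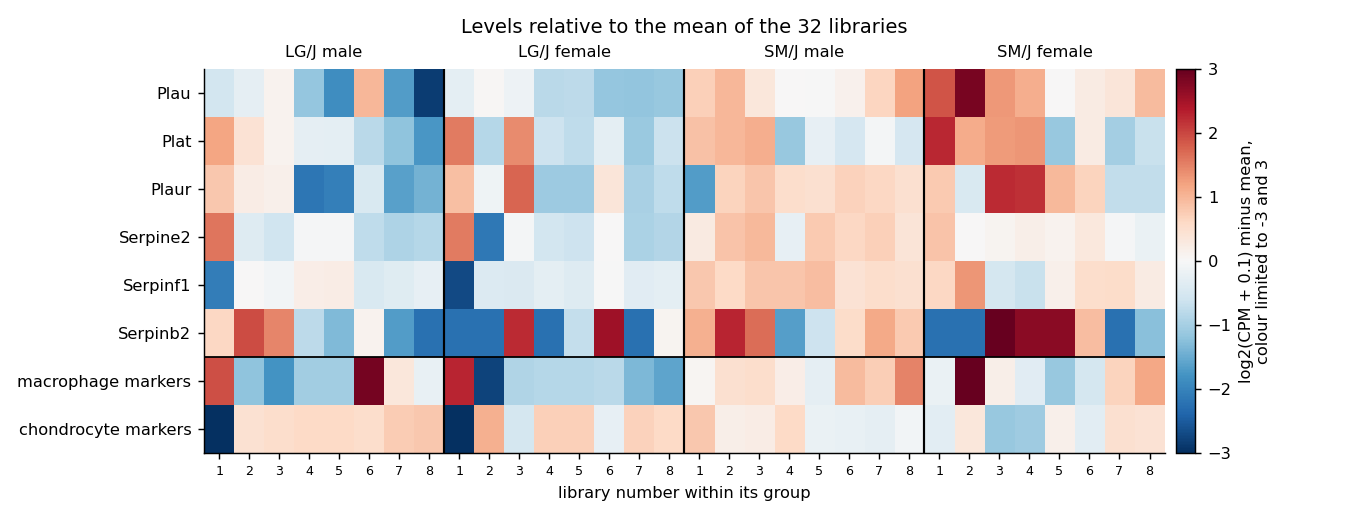
Level of each gene and of the summed macrophage and chondrocyte markers in every library, as log2(CPM + 0.1) minus the mean over the 32 libraries, with red above and blue below that mean. LG/J male 1 and female 1 are high for Serpine2 and low for Serpinf1 and chondrocyte markers, and SM/J females 3 and 4 are high for Plaur and Serpinb2.

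The genes whose library-to-library pattern was most like a member's were taken by the smaller of its Pearson correlations of log2 CPM over 14 LG/J libraries (without those numbered 1) and over 16 SM/J libraries, values that share libraries, depth and the close pairs. For Plaur these were Smad7 (r = 0.98 in LG/J and 0.97 in SM/J) and Tubb5 (0.96 and 0.95). For Serpine2 they were Hand2 (0.95 and 0.93), the Hand2os1 transcript (0.93 and 0.85) and Plpp3 (0.94 and 0.84). Plat was most like Adam9 (0.91 and 0.91), Pdgfra (0.89 and 0.91) and Sod3 (0.93 and 0.88). The nearest patterns were looser for Plau, led by Rab8b (0.82 and 0.80), for Serpinf1, led by Oxa1l (0.77 and 0.75), and for Serpinb2, led by Mmp10 (0.80 and 0.84).

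Genes within 200 kb of each member were also compared between strains over all 32 libraries, where 29.9% of all genes were called. The counts are small, and those around Plau, Plaur and Plat lie under that share. Around Serpinf1, 6 of 11 tested were called, 1 higher and 5 lower in LG/J, among them Tlcd2 at -1.23 ± 0.16 (log2; edgeR, adjusted p = 2.67e-07) and Mir22hg at -0.58 ± 0.09 (edgeR, adjusted p = 6.79e-06). Around Plau, 2 of 10 were called, 1 in each direction and both under 0.25 in log2 size. Around Plaur, 2 of 11 fell, Zfp93 at -0.26 ± 0.10 (edgeR, adjusted p = 0.0389) and Tescl, at 0.0538 ± 0.0732 CPM over LG/J libraries and 2.02 ± 0.531 CPM over SM/J libraries (SD, n = 16 each). Around Serpine2, 2 of 3 fell, Ap1s3 and Wdfy1, and around Plat, 1 of 8 rose, Kat6a. These neighbours were named after their values were seen.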

How the data were processed

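Reads were aligned with STAR 2.0.4b to GRCm38 and counted per gene with featureCounts 1.45 of Subread, per the submitters' processing notes; annotation release and strand setting are not stated there. For each library the authors deposited whole-number counts with CPM and RPKM for 41388 genes; the deposited CPM equalled count over total, and the deposited RPKM that CPM per kilobase. Only the counts were tested. Groups came from sample titles. Genes were filtered with filterByExpr, scaled with TMM and fitted with edgeR 4.0.16 (quasi-likelihood, robust, 4 group means, 32 libraries; R 4.3.3), with Benjamini-Hochberg adjustment over 16136 genes and calls under 0.05. The script was tested on simulated data. Alternatives used DESeq2 1.42.0, limma 3.58.1, other scalings, filters and library sets. Symbols matched 40254 IDs. Members, lists and tests were chosen with earlier results of these data known; named were all members, up to 4 called partners a list by smallest p, Plg and Plgrkt, and up to 3 genes a member by likeness. Klkb1 was not analysed here, and some genes are not reported here.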

Additional observations from a re-analysis of the deposited data

Results flagged for a closer look

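In groups of 8, a library's gap to its nearest neighbour over the group's range was compared with Dixon's critical value. Of 32 groups of the 6 genes, Plg and Plgrkt, 8 had such a library, where chance marks about 1 in 20. Levels were CPM without a log scale and the groups share libraries, so that rate is only a rough guide. LG/J male 1 and LG/J female 1 gave 4 of these: Serpine2 was at 4303 and 4183 CPM in them, above the 1379 and 1429 CPM that the remaining males and females reached, and Serpinf1 at 37.2 and 24.0 CPM, below the 112.9 and 115.9 CPM that those libraries had at least. Serpine2 was also high in SM/J female 1, at 2589 CPM, with 1235 to 1759 CPM in the 7 remaining SM/J females. SM/J female 2 was high for Plau, at 17.6 CPM, against 2.38 to 9.08 CPM, and for Plg, at 0.524 CPM, against at most 0.265 CPM. The Plg level there rests on 12 counts, against at most 6 in the other SM/J females. Plaur was low in SM/J male 1, at 23.9 CPM, against 105.5 to 135.0 CPM.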

How the results depend on the processing

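Plau and Serpinf1 were called over both sexes in all 14 alternatives, and in each fit without 1 library, with log2 fold changes over the alternatives of -1.70 to -1.53 and -1.03 to -0.74. The number of members called was 4 in place of 2 with limma voom, with the library number as a block, and without LG/J male 1 and female 1. It was 3 when the 6 libraries of both sexes were left out beside those numbered 1, and with close pairs summed without those numbered 1. Over all genes, 4826 of 16136 were called in the main fit, 6054 of 16136 with voom and 5286 of 16136 with the block. Without those numbered 1, 5224 of 16229 were called. For the fits with 3 members, in the same order, 4155 of 16536 and 3924 of 16539 genes were called. In females the number of members called was 1 in place of 2 with library size only, no filter, close pairs summed, or without LG/J male 6 and SM/J female 2. It was 3 in females with voom and without LG/J male 1 and female 1. Over all genes, 2156 of 16136 were called in females in the main fit. They were 1912 of 16136 with library size only, 2018 of 35652 with no filter and 1527 of 16328 with close pairs summed. Without LG/J male 6 and SM/J female 2 they were 2014 of 16197. They were 2426 of 16136 with voom and 2575 of 16229 without LG/J male 1 and female 1. In males the number of members called was 0 in place of 1 with no filter, 4 with voom and 3 with the block. It was 2 with DESeq2, without the libraries numbered 1 (also with close pairs summed, or without the 6 libraries of both sexes), and without LG/J male 6 and SM/J female 2. Over all genes, 3600 of 16136 were called for strain in males in the main fit and 3107 of 35652 with no filter. Voom called 5636, the block 4150 and DESeq2 3995, each of 16136. Without those numbered 1, 4005 of 16229 were called, 2929 of 16539 with close pairs also summed, and 3899 of 16536 without the 6 too. Without LG/J male 6 and SM/J female 2, 3544 of 16197 were called. Calls for sex were 123 with no filter, 1029 with DESeq2, 1734 with voom, 1052 with the block, 922 without the libraries numbered 1, 973 without these and the 6, 31 with close pairs summed and 28 with both changes. For strain by sex, 55 genes were called with DESeq2, 256 with voom, and 0 with library size only, no filter, the block, without the 6 (with or without those numbered 1), with close pairs summed (with or without those numbered 1), and without LG/J male 6 and SM/J female 2. The members added by the block were Plaur (-1.06, adjusted p = 0.0215) and Serpine2 (-0.71, adjusted p = 0.0083). Same-numbered pairs had a median correlation of 0.138, against -0.013 for other pairs, but only 30 of 48 were over 0.1 and 7 of 32 libraries were closest to their own number, so the numbers were not taken to pair libraries.

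Some values short of the threshold changed sign. Without the 6, and without both sets, Serpinb2 was at 0.16 and 0.27 over both sexes and 0.41 and 0.67 in females, Plaur at 0.24 and 0.16 in females, and the sex dependence of Serpinf1 at 0.23 and 0.14 and of Serpinb2 at -0.51 and -0.80. Without the 6, Plat in males was at 0.051. With voom, Serpinb2 was at 0.74 for sex and -0.68 for sex dependence. With close pairs summed, and also without those numbered 1, sex dependence was -0.062 and -0.17 for Plat and -0.55 and -0.88 for Serpinb2. Without LG/J male 6 and SM/J female 2 it was 0.034 for Plaur. The cause was not tested. Leaving out 1 library gave 4493 to 5151 calls for strain, 1886 to 2375 in females, 3008 to 4073 in males, 314 to 963 for sex and 0 to 23 for sex dependence, and 2 to 4, 1 to 2 and 1 to 2 members called for strain, in females and in males. Sex dependence then ran from -0.062 to 0.67 for Plat, -0.42 to 0.35 for Plaur, -0.78 to 0.23 for Serpine2, -0.25 to 0.082 for Serpinf1 and -0.25 to 1.04 for Serpinb2. Plaur was called without LG/J female 3, LG/J male 1 or SM/J male 1. Plau in males was called without LG/J male 6 or SM/J female 2. Counts limit Serpinb2, with at most 88 in a library.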
